A study of Mus musculus with 51 samples.

Results

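H3K4me3 was compared between zygonema and early pachynema, the meiotic stages between which homologous chromosomes complete their synapsis. The comparison used 4 of the 20 peak lists in the series: experiments 1 and 2 of each stage, made with the EpiCypher H3K4me3 antibody. Overlapping peaks of the 4 lists were merged into 17886 sites. A site was called lost when both zygonema lists and neither early pachynema list had a peak there, gained when the reverse was true, and kept when all 4 lists had one. By this rule 3979 sites were lost (22.2% of the merged sites), 141 were gained (0.788%) and 4341 were kept (24.3%), while the remaining 9425 sites (52.7%) had peaks in another combination of the lists. All 51 samples came from testes of wild-type adult C57Bl/6J male mice with no treatment, and the groups were labelled as differing in the sorted stage. Nuclei were sorted by flow cytometry on DNA content, SCP3, H1t and SCP1, with STRA8 used for leptonema. Zygonema and early pachynema were separated by the intensity of SCP1, so that each population also holds nuclei of the neighbouring stage. The labels do not say whether the experiments came from separate mice, and the p-values below measure the spread between libraries.

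H3K4me3 is a histone mark found at active gene promoters in most cell types. In early meiosis a second source is added: PRDM9, a methyltransferase with a zinc-finger array, binds a DNA motif and trimethylates H3K4 on the nucleosomes around it. Many of these places become hotspots of the programmed DNA breaks (DSBs) from which crossovers arise, and the break machinery is led by SPO11. The breaks are repaired by recombinases, DMC1 among them, while the synaptonemal complex joins the homologues.

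The lost sites outside transcription start sites (TSSs) were read in the genome sequence to show what lay at their centres. A TSS was taken as each transcript start in GENCODE M21 (mm10) with 500 bp added to its left and right, and 3183 of the 3979 lost sites touched none. The sites are shown because they carry most of the difference between the stages. The sequence is 200 bp around the middle of the overlap of the zygonema peaks, from the plus strand of GRCm38.p6, and capitals mark matches to GNTGCTNCT on either strand (AGNAGCANC on the plus strand). These letters are the core of the motif known for the PRDM9 allele of C57BL/6 mice. The first sequence, in an intron of Ankfn1, was second in mean width rank among the lost sites outside TSSs and had no match. The other 3 were among the 4 widest with a match: sites at an exon of Dennd1a, between genes at 67642 bp from Erbb4 and in an intron of Prickle2.
Ankfn1 intron, chr11:89611818-89612017: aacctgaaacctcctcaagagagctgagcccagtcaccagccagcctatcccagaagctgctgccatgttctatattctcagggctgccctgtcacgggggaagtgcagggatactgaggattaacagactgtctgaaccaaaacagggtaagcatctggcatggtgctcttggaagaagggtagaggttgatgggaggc
Dennd1a, chr2:38137519-38137718: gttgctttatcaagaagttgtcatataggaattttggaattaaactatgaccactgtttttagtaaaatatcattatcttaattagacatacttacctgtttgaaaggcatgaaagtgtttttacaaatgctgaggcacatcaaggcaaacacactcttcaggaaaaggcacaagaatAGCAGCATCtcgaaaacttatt
Erbb4 side, chr1:67962395-67962594: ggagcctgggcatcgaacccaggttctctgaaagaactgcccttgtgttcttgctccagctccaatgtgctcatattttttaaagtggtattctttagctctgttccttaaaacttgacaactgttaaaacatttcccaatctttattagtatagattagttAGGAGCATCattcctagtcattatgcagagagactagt
Prickle2, chr6:92589122-92589321: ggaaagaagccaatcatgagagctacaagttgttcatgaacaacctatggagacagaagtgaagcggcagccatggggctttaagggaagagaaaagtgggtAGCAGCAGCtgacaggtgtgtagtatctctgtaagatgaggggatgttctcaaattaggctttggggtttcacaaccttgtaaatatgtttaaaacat
The 3 windows with a match held 1 each. That at Prickle2 (AGCAGCAGC) is the simple repeat GCTGCTGCT read on the other strand. Of the 8 lost sites outside TSSs with the widest peaks, 1 held a match within 100 bp of its centre, the site at Dennd1a.

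Over all 3183 lost sites outside TSSs, 460 (14.5%, 95% exact binomial interval 13.2 to 15.7%) held the motif within 100 bp of the centre. Windows of the same length centred 750 bp to the left and right of these sites held it in 3.24% and 3.80% of cases. The centre therefore held it 4.11 times as often as the flanks. Among promoters the share was lower: 5.81% of the 4285 kept sites at TSSs and 4.50% of 32851 RefSeq promoter windows of 200 bp had a match. Lost sites at TSSs lay between, with 74 of 796 (9.30%, 7.37 to 11.5%). The motif was not particular to the lost sites: sites outside TSSs with a peak in zygonema 1 alone held it in 774 of 4976 cases (15.6%, 14.6 to 16.6%), and those in zygonema 2 alone in 59 of 927 (6.36%, 4.88 to 8.13%). Without matches to the simple repeat GCTGCTGCT the shares were 12.8% at the centres and 3.19% in the flanks. A match is a description of the letters and was not tested as a binding site.

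**Figure D1:**
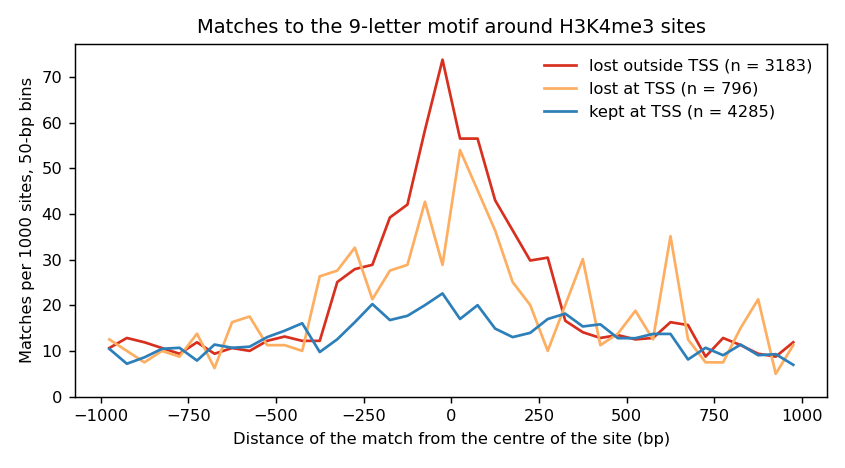
Matches to GNTGCTNCT on either strand per 1000 sites (vertical axis) in 50-bp bins by distance from the site centre in bp (horizontal axis), for lost sites outside TSSs, lost sites at TSSs and kept sites at TSSs. The lost sites outside TSSs reach 73.8 matches per 1000 sites in the bin just left of the centre, while the kept sites reach 22.6 there.

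The matches clustered within about 350 bp of the centre. In the bin from -50 to 0 bp there were 73.8 matches per 1000 lost sites outside TSSs, against 10.7 in the bin from -1000 to -950 bp. Kept sites at TSSs had 22.6 per 1000 in the same central bin. Lost sites at TSSs had 28.9 there (23 matches) and 54.0 (43 matches) in the bin from 0 to 50 bp, where lost sites outside TSSs had 56.6. Words of 8 bases differed in where else they lay. GCAGCAGC (GCTGCTGC) was in 5.91% of the centres and 1.12% of the flanks but also in 6.35% of the kept sites at TSSs. GCAGCACC, or its reverse complement GGTGCTGC, lay in 4.59% of the centres, 0.738% of the flanks and 2.22% of the kept sites at TSSs. GCAGTAGC (GCTACTGC) lay in 3.30%, 0.346% and 0.793%, respectively.

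Base composition set the lost sites outside TSSs apart from sites at TSSs. Their median GC content in 200 bp was 44.5%, against 43.0% in each of their flanks, 71.0% at kept TSS sites and 64.0% at lost TSS sites. The median ratio of observed to expected CpG was 0.163 at lost sites outside TSSs, 0.767 at lost TSS sites, 0.941 at kept TSS sites and 0.624 at gained TSS sites. A ratio above 0.6, a usual limit for CpG islands, was found at 3.14% of lost sites outside TSSs, 62.2% of lost TSS sites, 96.9% of kept TSS sites and 52.9% of gained TSS sites. The 4976 sites outside TSSs with a peak in zygonema 1 alone were much like the lost ones, with a median GC content of 44.0%, a ratio of 0.152 and 3.03% above 0.6. The 927 in zygonema 2 alone differed, with 50.0%, 0.321 and 25.1%. The lost sites outside TSSs were thus poor in CpG, as were their flanks and the sites in zygonema 1 alone.

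Loss fell mainly outside TSSs, whereas gain and retention fell at TSSs. A TSS lay at 796 of the 3979 lost sites (20.0%, 18.8 to 21.3%), at 121 of the 141 gained sites (85.8%, 78.9 to 91.1%) and at 4285 of the 4341 kept sites (98.7%, 98.3 to 99.0%). Over all merged sites the share was 47.7%. At the level of libraries, 8352 and 4292 peaks lay outside TSSs in zygonema 1 and 2, against 251 and 167 in early pachynema 1 and 2. Peaks at TSSs numbered 7347 and 7022 in zygonema and 6396 and 4716 in early pachynema. Both counts were higher in both zygonema libraries than in either early pachynema library, by 30.2 times on average outside TSSs and 1.29 times at TSSs. With 2 libraries against 2, the two-sided exact permutation test gave p = 0.333 for each, which is the smallest p this design allows.

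The lists ran from 4883 to 15699 peaks, and the size of each class differed when they were cut to equal length. The lists hold no score or read count, so the depth behind a peak is unknown and a site without a peak may carry the mark below the caller's threshold. When the 4883 widest peaks of each list were used, 1600 sites were lost, 1569 were gained and 1400 were kept. This cut also set a different smallest width in each list, of 882 bp and 615 bp in zygonema 1 and 2 and 324 bp and 154 bp in early pachynema 1 and 2, so that length and width cannot be told apart here. Of the lost sites, 13.7% were then at a TSS, against 97.5% of the gained sites. The placing of the loss outside TSSs thus held in both settings. The cut gives both stages the same number of peaks, so it cannot show whether lost sites exceed gained ones. With the wider part of each list, which leaves the lists unequal in length, 2348 sites were lost and 219 gained. Without zygonema 2, 9662 sites were lost, and without early pachynema 1, 38.0% of the lost sites were at a TSS. Gained sites numbered 344 without zygonema 1, 227 without zygonema 2 and 450 without early pachynema 2. Of the 3979 lost sites, 1566 (39.4%) had peaks among the widest 4883 in both zygonema lists, and of the lost sites outside TSSs 1380 (43.4%) did.

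**Figure D2:**
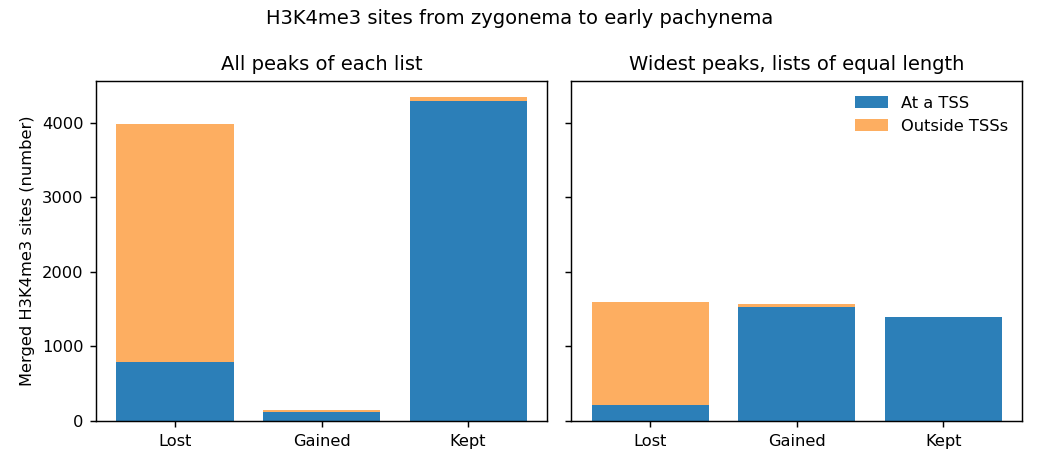
Number of merged H3K4me3 sites (vertical axis) that were lost, gained or kept from zygonema to early pachynema, divided into sites at a TSS and outside TSSs. The left panel uses all peaks (3979 lost, 141 gained, 4341 kept) and the right panel uses the 4883 widest peaks of each list (1600, 1569 and 1400).

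The lost sites outside TSSs were spread over genes and the space between them. Of the 3183, 1411 (44.3%) lay in introns, 515 (16.2%) touched an exon and 1257 (39.5%) were intergenic. Their median distance to the nearest TSS was 12017 bp, and 54.9% lay more than 10 kb from one. All 19 autosomes held them, from 9.75 per 10 Mb on chromosome 3 to 16.4 per 10 Mb on chromosome 11. Kept sites varied more, from 12.2 per 10 Mb on chromosome 14 to 30.7 on chromosome 11. The median distance of a lost site outside TSSs to the nearest kept site was 177 kb. Their median distance to the next lost site outside TSSs was 210 kb, and 16.1% had another within 50 kb.

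The widest lost sites outside TSSs were many times longer than a typical peak. The widest was at chr8:46998450-47008092 (mm10), over an exon of Enpp6, with a peak of 9643 bp in zygonema 1 and of 5840 bp in zygonema 2. It also had a peak in both leptonema libraries and no H3K9ac peak in zygonema. The next was at chr11:89609499-89614262 in an intron of Ankfn1, with peaks of 2495 bp and 4764 bp. It too had an H3K4me2/3 peak in early pachynema, which 6.94% of the lost sites outside TSSs had. Others of the 8 widest lay at Pkd2l1, Nrg1 and Dennd1a and in intergenic DNA at 166999 bp from Pax1. These were described by the order that chose them, which used width in zygonema.

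As a class, the lost sites outside TSSs were among the wider peaks in zygonema 1 and close to kept sites in zygonema 2. Their median width was 993 bp in zygonema 1 and 648 bp in zygonema 2, against 760 bp and 636 bp for the zygonema peaks at kept sites. Their median rank by width was at percentile 76.9 of the list in zygonema 1 and 60.2 in zygonema 2. Kept sites were at 58.4 and 58.9. The peaks at lost TSS sites were narrower, with medians of 626 bp and 496 bp. Gained sites were narrow in the stage that had them, with medians of 323 bp in early pachynema 1 and 283 bp in early pachynema 2.

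**Figure D3:**
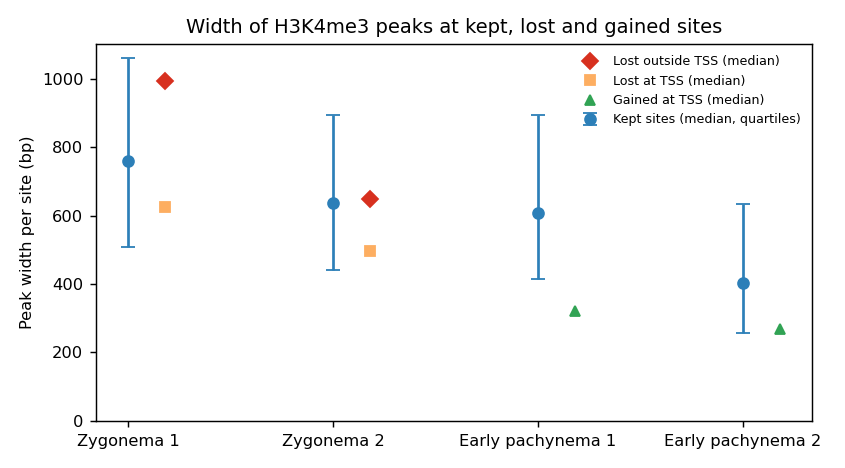
Median peak width in bp per site (vertical axis) in the 2 zygonema and 2 early pachynema libraries. Blue points with bars give the median and quartiles at kept sites (760, 636, 608 and 404 bp), and the other points give medians at lost sites outside TSSs, lost sites at TSSs and gained sites at TSSs.

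The other 6 H3K4me3 libraries took no part in the rule, and they placed the sites in the course of prophase I. Of the lost sites outside TSSs, 41.4% and 33.3% had a peak in leptonema 1 and 2. In late pachynema 1 and 2 the shares were 0.0943% and 1.01%, and in diplonema 1 and 2 they were 0.314% and 1.48%. Thus 3130 of 3183 (98.3%) had no peak in any of the 4 later libraries, and 1675 (52.6%) had none in leptonema either. Over all lost sites, the mean share with a peak was 45.7 ± 4.03% (SD, n = 2) in leptonema and 6.11 ± 4.83% (SD, n = 4) in late pachynema and diplonema. Both leptonema libraries exceeded all 4 later ones, with p = 0.133 in the two-sided exact permutation test, which doubles the share of the 1 most extreme of 15 splits and is the smallest value it can give here. The difference of 39.6 percentage points was 20.2 when zygonema 2 was left out of the rule.

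Leptonema peaks went with width in zygonema. Of the 796 widest lost sites outside TSSs, 68.0% had a peak in both leptonema libraries, against 6.92% of the 795 narrowest. The share with the motif differed less, 16.3% (13.8 to 19.1%) against 13.1% (10.8 to 15.6%), and the intervals overlapped. Sites with a peak in both leptonema libraries held the motif in 15.8% of cases and those with none in 13.0%.

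Lost sites at TSSs followed another course. A leptonema peak was present at 77.1% and 81.2% of the 796 sites in experiments 1 and 2. Peaks were seen again at 4.40% and 41.3% in late pachynema 1 and 2 and at 14.7% and 50.3% in diplonema 1 and 2. The libraries of experiment 2 thus showed many more of them than those of experiment 1. The later lists of experiment 2 were also longer, with 9124 and 12071 peaks against 5189 and 6645, and the part of list length was not tested. In all, 419 of 796 (52.6%) had a peak in at least 1 of the 4 later libraries, but 24 (3.02%) had one in all 4.

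Gained sites mostly had peaks in the later stages, as kept sites did, but fewer had one in leptonema. Of the 141, 84.4% and 88.7% had a peak in late pachynema 1 and 2 and 80.1% and 91.5% in diplonema 1 and 2, while 104 (73.8%) had one in all 4. Kept sites had a peak at 88.0% and 97.2% in late pachynema, at 81.2% and 98.8% in diplonema, and at 76.9% in all 4. In leptonema the shares were 18.4% and 40.4% at gained sites and 98.1% and 99.4% at kept sites. No leptonema peak together with peaks in all 4 later libraries was found at 64 gained sites (45.4%), at 12 kept sites (0.276%) and at 0 of the 3979 lost sites. The leptonema libraries were below all 4 later libraries (p = 0.133, two-sided exact permutation test, 2 against 4 libraries).

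The H3K4me2/3 antibody (Abcam), which also binds the dimethyl mark, and H3K9ac were not used by the rule and were read at the same places, with 1 library for each stage. H3K9ac is an acetyl mark of active promoters and enhancers. At lost sites outside TSSs, H3K4me2/3 peaks were present at 97.9% in zygonema and 6.94% (6.08 to 7.88%) in early pachynema. H3K9ac peaks were present at 85.4% (84.1 to 86.6%) in zygonema and 0.817% (0.534 to 1.19%) in early pachynema, and at 0.754% in leptonema. The H3K9ac lists held 16003 peaks in zygonema and 7744 in early pachynema, but 2823 in leptonema, 1727 in late pachynema and 516 in diplonema. Kept sites too had H3K9ac peaks at 49.7%, 32.0% and 7.90% in leptonema, late pachynema and diplonema, so that a low share in those stages does not show that the mark was absent. Both marks were present in zygonema and both absent in early pachynema at 2493 of 3183 sites (78.3%). The stages have 1 library each, so the change between them has no replicate check.

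At lost TSS sites the other antibody often still had a peak. H3K4me2/3 peaks were present at 99.6% of the 796 sites in zygonema and at 69.7% (66.4 to 72.9%) in early pachynema, and H3K9ac peaks at 88.6% and 25.4%. At 555 of the 796 sites (69.7%) at least 1 of these marks was called in early pachynema. Of kept sites, 99.1% had both marks in zygonema. At gained sites, H3K4me2/3 peaks were already present at 91.5% (85.6 to 95.5%) in zygonema, and H3K9ac peaks at 44.0% in zygonema and 87.2% in early pachynema. A call that was absent from the EpiCypher lists was thus often present with the other antibody at TSSs, and rarely so at lost sites outside TSSs.

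**Figure D4:**
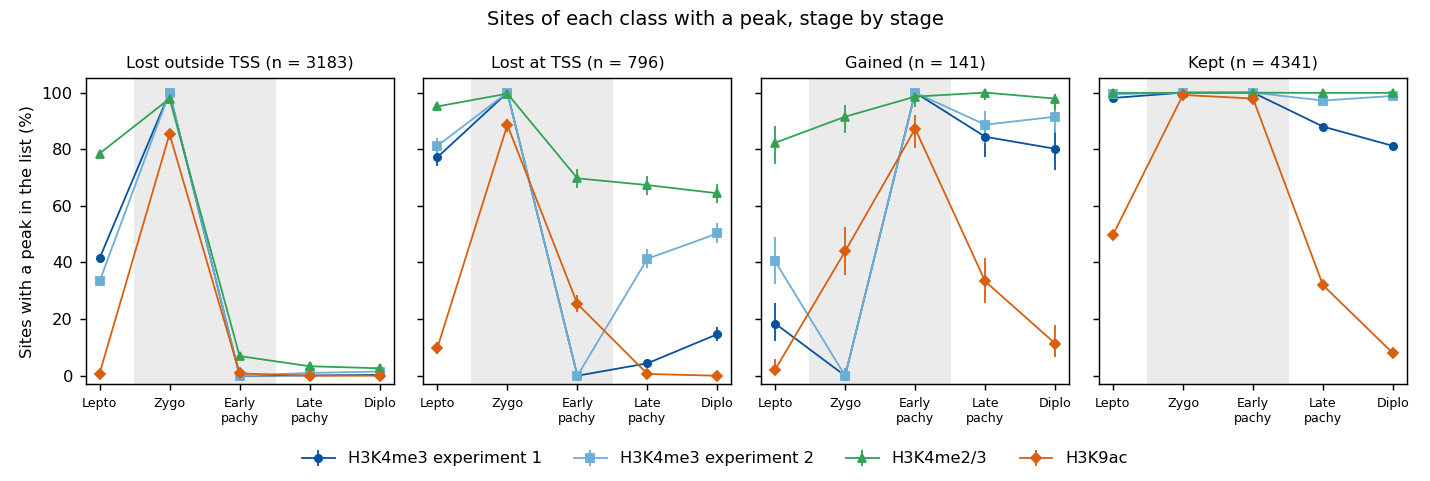
Share of sites with a peak (%, vertical axis) in each stage (horizontal axis) for lost sites outside TSSs, lost sites at TSSs, gained sites and kept sites, in the H3K4me3 libraries of experiments 1 and 2, H3K4me2/3 and H3K9ac. Bars are 95% exact binomial intervals over sites and shading marks the stages used by the rule, where the H3K4me3 shares are 0 or 100% by definition. H3K9ac at lost sites outside TSSs was 85.4% in zygonema and below 1% in the other stages, whose H3K9ac lists were shorter.

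At kept sites, the peaks were narrower in early pachynema, as were peaks at TSSs in general. The median width was 760 bp and 636 bp in zygonema 1 and 2 and 608 bp and 404 bp in early pachynema 1 and 2. On the log2 scale the mean of the library medians was 9.44 ± 0.18 (SD, n = 2) in zygonema and 8.95 ± 0.42 in early pachynema, a difference of -0.49 with p = 0.333 in the two-sided exact permutation test. The groups did not overlap, but zygonema 2 and early pachynema 1 lay close together. Within experiment 1 the difference of the library medians was -0.32 and within experiment 2 it was -0.65. Without early pachynema 1 it was -0.79 and without early pachynema 2 it was -0.26. Per site, the median log2 change was -0.20 in experiment 1 and -0.55 in experiment 2. Of 4341 sites, 2343 (54.0%) were narrower in early pachynema in both experiments and 479 (11.0%) were wider in both. Over all peaks at TSSs, the median width was 652 bp and 557 bp in zygonema and 499 bp and 385 bp in early pachynema. Kept sites had median width percentiles of 58.4 and 58.9 in the zygonema lists and 62.2 and 53.5 in the early pachynema lists.

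At the level of genes, 792 genes lost H3K4me3 at their TSSs by the rule (1.55% of 51229 genes on chromosomes 1 to 19), 141 gained it (0.275%) and 5703 kept it (11.1%), while 3819 (7.45%) had peaks in another combination. Among the 20807 protein-coding genes 600 lost it (2.88%), 104 gained it (0.5%) and 4914 kept it (23.6%), while 2993 (14.4%) had another combination. With lists of equal size, 196 genes were lost and 1893 gained. Of these 1893, 1680 had a peak in both full zygonema lists that was not among the 4883 widest. Lost genes numbered 1420 without zygonema 1, 1445 without zygonema 2 and 2302 without early pachynema 1. Gained genes numbered 332 without zygonema 1, 241 without zygonema 2 and 409 without early pachynema 2. A called loss at a gene is therefore given here as the call of the lists, and the named genes carry their widths in each library.

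The lost protein-coding genes had mostly been marked in leptonema. Of the 600, 494 (82.3%) had a peak in both leptonema libraries and 157 (26.2%) had none in the 4 later ones. In early pachynema, 564 (94.0%) still had an H3K4me2/3 peak and 219 (36.5%) an H3K9ac peak. Of the 104 gained genes, 46 (44.2%) had no leptonema peak and 77 (74.0%) had a peak in all 4 later libraries. All 104 had an H3K4me2/3 peak in early pachynema, and 102 of them (98.1%) had one in zygonema.

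The sequences of a lost and a gained promoter are printed because CpG content set the classes apart, with each CpG in capitals. They are 300 bp from RefSeq (GRCm38.p6), from 250 bp before the gene start to 50 bp after it. Dmc1, the recombinase used only in meiosis, was lost, and Ccna1, the cyclin A of the male meiotic divisions, was gained.
Dmc1 promoter, chr15:79605060-79605359, minus strand: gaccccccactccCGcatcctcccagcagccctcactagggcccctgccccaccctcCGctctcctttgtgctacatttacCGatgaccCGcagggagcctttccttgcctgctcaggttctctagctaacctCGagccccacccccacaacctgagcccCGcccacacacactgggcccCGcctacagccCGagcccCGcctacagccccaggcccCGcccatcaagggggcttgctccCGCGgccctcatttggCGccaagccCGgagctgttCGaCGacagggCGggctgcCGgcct
Ccna1 promoter, chr3:55055006-55055305, minus strand: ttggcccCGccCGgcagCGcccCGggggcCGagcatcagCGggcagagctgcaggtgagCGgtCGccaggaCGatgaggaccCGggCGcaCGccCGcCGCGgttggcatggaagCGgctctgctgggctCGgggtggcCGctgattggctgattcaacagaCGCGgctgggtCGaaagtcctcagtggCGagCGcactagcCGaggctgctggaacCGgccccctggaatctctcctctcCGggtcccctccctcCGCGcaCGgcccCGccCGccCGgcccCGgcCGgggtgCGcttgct
The Dmc1 promoter held 18 CpGs and the Ccna1 promoter 35. The order of this pair is thus the reverse of the order of the class medians at TSS sites, where lost sites had the higher ratio. No median over promoters of the classes is given, because fewer than 80% of the lost and of the gained genes matched a RefSeq promoter.

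Genes for the formation of DSBs were kept where they had a peak, and those for PRDM9 function were divided. Of all protein-coding genes with a peak in the 4 lists, 57.1% were kept, 6.97% were lost and 1.21% were gained. The lost and gained members named below are few, and no gene list was tested against these shares. Spo11, the break-forming enzyme, had peaks of 245 bp and 375 bp in zygonema and 211 bp and 248 bp in early pachynema. Ankrd31 and Gm960 (Top6bl), its partners, were also kept, and the other 4 of the 7 genes in this list had no peak in the 4 lists. Prdm9 had peaks of 916 bp and 540 bp in zygonema and 692 bp and 180 bp in early pachynema. Of the 9 genes for PRDM9 and its partners, 4 were kept, 4 had another combination and Zcwpw1 was lost. Zcwpw1 encodes a reader of the H3K4me3 and H3K36me3 pair that PRDM9 writes. It had peaks of 1027 bp and 346 bp in zygonema and none in early pachynema, where H3K4me2/3 still covered 3103 bp and H3K9ac had no peak.

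Genes of the chromosome axis, the synaptonemal complex and strand exchange showed each of the classes. Of 16 axis and cohesin genes 12 were kept and none was lost or gained, among them Sycp3, with 1493 bp and 1062 bp in zygonema and 875 bp and 678 bp in early pachynema. Sycp1, the transverse filament on which the sort rests, was kept with 831 bp, 981 bp, 689 bp and 689 bp. Syce3, of the central element, was lost, with 616 bp and 219 bp in zygonema. Among 23 strand exchange genes 22 had a peak and 2 were lost. Of the lost ones, Dmc1 had 622 bp and 181 bp in zygonema. Rad54l, a DNA translocase of recombination, was the gained one, with 722 bp and 676 bp in early pachynema. The leptonema peaks of Rad54l were 586 bp and 264 bp wide, so that the absence was seen in zygonema alone, while H3K4me2/3 and H3K9ac covered 994 bp and 1293 bp there. Of 14 crossover genes 12 had a peak. Msh5, which stabilises crossover intermediates, was lost from them, with 302 bp and 658 bp in zygonema. In early pachynema H3K4me2/3 covered 1489 bp at Syce3, 898 bp at Dmc1 and 1247 bp at Msh5. H3K9ac had peaks there at Syce3 (1012 bp) and Msh5 (516 bp) and none at Dmc1.

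Genes of cell division and of entry into meiosis also gave lost members. Of 21 genes for the meiotic divisions 17 had a peak. Among these, Plk1, Ccnb1 and Espl1 were lost, 9 were kept and Ccna1 was gained. Plk1, a mitotic kinase, had peaks of 546 bp and 401 bp in zygonema, none in early pachynema and 2336 bp and 1990 bp in diplonema. Ccnb1, the cyclin partner of CDK1, and Espl1, the separase, also had peaks in both diplonema libraries. All 3 genes thus had H3K4me3 peaks in zygonema and again in diplonema. In early pachynema H3K4me2/3 still covered 1398 bp at Plk1, 873 bp at Ccnb1 and 1073 bp at Espl1. H3K9ac had peaks there at Plk1 (336 bp) and Ccnb1 (288 bp) and none at Espl1. Ccna1 had 173 bp and 197 bp in early pachynema and widened to 1385 bp and 1673 bp in diplonema, with no peak in leptonema. Of 24 genes for spermatogonia and meiotic entry, Sohlh2 and Etv5 were lost, 3 were kept and 15 had no peak, Stra8 among them. Sohlh2 had 582 bp and 399 bp in zygonema and no peak in the 4 later libraries. In early pachynema H3K4me2/3 covered 1074 bp at Sohlh2 and H3K9ac had no peak.

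Regulators of chromatin gave both kept and lost members. Of 22 methyltransferases and demethylases of H3K4, 11 were kept, 8 had another combination, and Kmt2a and Kdm1b were lost. Of those with a peak 52.4% were kept, against 57.1% of all protein-coding genes with a peak. The lost share of the list was 9.09%, against 2.88% of all protein-coding genes, most of which had no peak. Of the 21 list genes with a peak 2 were lost, and of all protein-coding genes with a peak 6.97%. Kmt2a had 1029 bp and 786 bp in zygonema and Kdm1b had 1170 bp and 711 bp, and neither had a peak in the 4 later libraries. In early pachynema H3K4me2/3 still covered 1727 bp at Kmt2a and 1201 bp at Kdm1b. H3K9ac covered 233 bp at Kmt2a there and had no peak at Kdm1b. With lists of equal size, Kmt2a, Kdm1b, Foxo3, Tssk6, Ndufa13 and Ptch1 were still lost. Zcwpw1, Syce3, Dmc1, Msh5, Plk1, Ccnb1, Espl1, Sohlh2, Etv5 and Dnmt3a were not, nor were Ccna1, Cfap65 and Ift172 still gained, while Rad54l, Gins1, Ldhal6b, Uqcr11 and Cfap74 were. Of 15 genes of DNA methylation 8 had a peak, 4 were kept and Dnmt3a, a de novo DNA methyltransferase, was lost. It had 766 bp and 1758 bp in zygonema and had peaks again in diplonema, of 410 bp and 978 bp. In early pachynema H3K4me2/3 covered 1997 bp and H3K9ac 190 bp at Dnmt3a. The transcription factor Foxo3 had 1560 bp and 1234 bp in zygonema and none in early pachynema, although H3K4me2/3 covered 3714 bp there.

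Genes that act after meiosis or in metabolism had both lost and gained members. Ldhal6b, a testis lactate dehydrogenase, and Cfap65, Cfap74 and Ift172, which build the axoneme or the flagellum, were gained. Of the same lists, Pkm was lost among 30 glycolysis genes, and Ift27 and Spag6 among 89 axoneme and cilium genes. Ift172 had leptonema peaks of 311 bp and 494 bp. In zygonema H3K4me2/3 covered 1609 bp and H3K9ac 479 bp at Ift172. Ldhal6b had 714 bp and 501 bp in early pachynema, 1652 bp and 1776 bp in diplonema and no peak in leptonema. Cfap74 had 419 bp and 265 bp in early pachynema. Tssk6, a spermatid kinase, and Ndufa13, a subunit of respiratory complex I, share a TSS region and a peak of 939 bp and 633 bp in zygonema, which was lost. In early pachynema H3K4me2/3 still covered 2841 bp and H3K9ac 701 bp at this region. The other gained members of the lists were Uqcr11 of complex III and Gins1 of the replication helicase. In leptonema, Gins1 was covered over 775 bp and 1000 bp, and H3K9ac covered 1346 bp there in zygonema.

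Against these, housekeeping and male-germline regulators were largely kept. Of 38 proteasome genes 30 were kept and none was lost or gained, and of 76 ribosomal protein genes 56 were kept and likewise none. Of 18 pachytene regulators 14 were kept, among them Mybl1, which encodes A-MYB, the activator of pachytene genes, with 1185 bp, 1050 bp, 1289 bp and 952 bp. The median log2 ratio of width, early pachynema over zygonema, was -0.09 for the kept pachytene regulators and -0.07 for the proteasome genes. Over all kept protein-coding genes it was -0.38. For 12 kept genes of the piRNA pathway, which silences transposons, the median was 0.28, with Tdrd5 (515 bp and 214 bp in zygonema, 1024 bp and 464 bp in early pachynema) the highest. In the same list Rnf17, Tdrd7, Tdrd3 and Mael had ratios below 0. For 9 kept genes of the meiotic divisions the median was -0.82, and Cdc20 stood apart at 0.65.

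**Figure D5:**
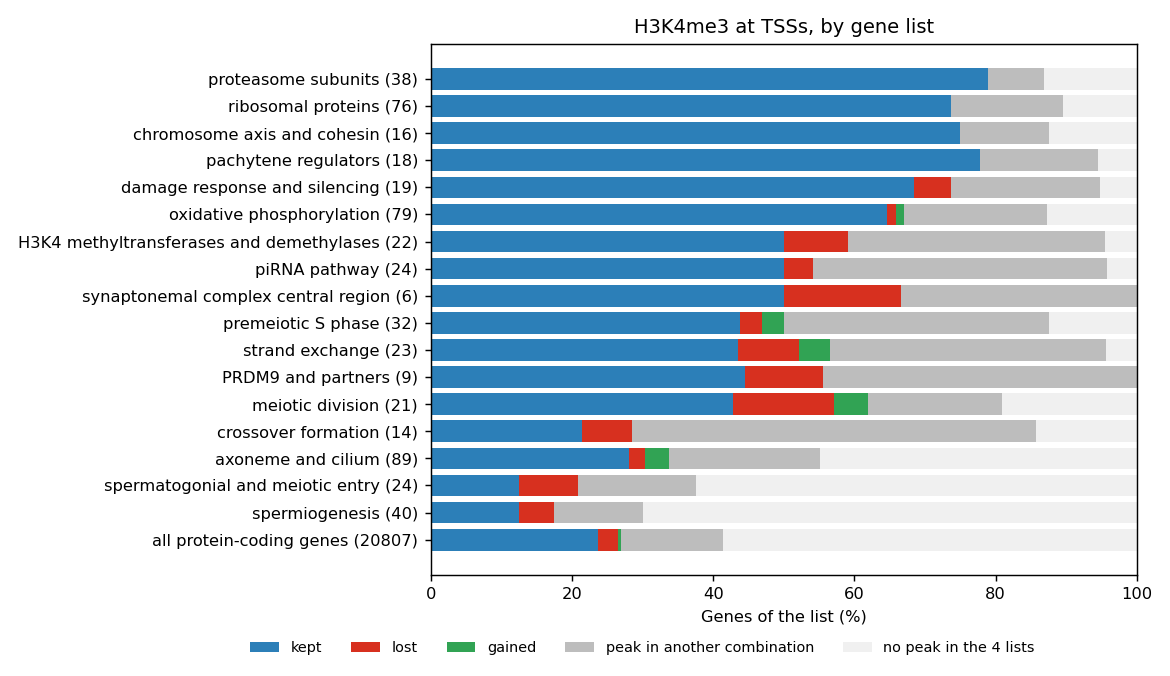
Share of the genes of each list (%, horizontal axis; number of genes in parentheses) that were kept, lost or gained at their TSSs, had a peak in another combination of the 4 lists, or had none. Proteasome genes were kept in 30 of 38 cases, against 4914 of all 20807 protein-coding genes. Among genes with a peak, 90.9% of the proteasome genes and 57.1% of all protein-coding genes were kept.

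The single genes with the widest lost or gained peaks came from many functions. Atp1b1, a subunit of the sodium pump, had lost peaks of 2910 bp and 2882 bp, and H3K9ac covered 2640 bp there in zygonema and had no peak in early pachynema. Mcam, a cell adhesion molecule, had 2044 bp and 1682 bp. Pigl and Zbtb1 were different, with H3K9ac peaks of 1921 bp and 776 bp in early pachynema and H3K4me3 peaks in both diplonema libraries. The widest gained gene was Cdc42ep3, a partner of CDC42, with 1405 bp and 1265 bp in early pachynema and 2327 bp and 2801 bp in diplonema. Next came the transcription factor Pou6f1 (942 bp and 1078 bp) and Ptchd3, a patched-domain protein (1058 bp and 799 bp).

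Among kept genes, B3galnt1, a glycosyltransferase, widened most by the rule used for naming genes. Its peaks were 154 bp and 326 bp in zygonema and 1169 bp and 995 bp in early pachynema, and H3K9ac had no peak in zygonema and covered 2020 bp in early pachynema. Zscan2, a zinc-finger gene, went from 410 bp and 286 bp to 1280 bp and 1053 bp, and Tesmin, a testis protein of the CXC family, from 787 bp and 611 bp to 1321 bp and 1687 bp. In the other direction, P4hb, the protein disulfide isomerase, went from 2805 bp and 2388 bp to 186 bp and 184 bp. Dnajc11 went from 1677 bp and 2712 bp to 403 bp and 166 bp, and H1f0, a linker histone gene, from 1365 bp and 983 bp to 245 bp and 154 bp. These genes were chosen for their change in width, which is given as a description.

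Markers of testis somatic cells were mostly absent from the 4 lists. Of 51 marker genes of Sertoli, Leydig, peritubular myoid, endothelial and macrophage or blood cells, 44 had no peak in any list. Among all 20807 protein-coding genes, 12196 (58.6%) had none either. Tjp1 was kept, Ptch1 was lost with 1124 bp and 1426 bp in zygonema, and Ctsl, Wt1, Nr5a1, Cnn1 and Laptm5 had another combination. Hist1h1t, which encodes the H1t used in the sort, had a peak in zygonema 2 of 747 bp and none in the other 3 libraries.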

How the data were processed

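Peak lists of 20 of the 51 samples were used, and the other samples were not analysed here. The deposited files are BED intervals, called by the authors in each library separately against the input of the same stage for H3K4me3. The authors aligned reads to mm10 with BWA 0.7.12 and called broad peaks with MACS2 2.1.2, and the submitters' processing notes also name deepTools 3.0.1. The files hold no score, signal or read count, so depth is unknown, and a list's length can depend on it. For H3K9ac the control was not stated, and the antibody field of its labels names an H3K4me3 antibody while the titles name H3K9ac. The authors' methods list an anti-H3K9ac antibody for ChIP, and the titles were followed here.

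Peaks sharing at least 1 bp were merged (Python 3.11.15, numpy 2.4.6, checked with bedtools 2.31.1) on chromosomes 1 to 19. Differences between libraries were tested with two-sided exact permutation tests (scipy 1.17.1). Shares carry 95% exact binomial intervals, which cover counting error over sites only, since sites are not replicates of a stage. The scripts were tested on simulated data. Names were taken from GENCODE M21 and sequences from RefSeq (GRCm38.p6, the same assembly as mm10).

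The members and gene lists were chosen with earlier results of these data known. The rule for named genes took the lost and gained members of each list (at most 8), the 10 lost and 10 gained protein-coding genes with the highest width ranks, the 8 widest lost sites outside TSSs, the 10 kept genes with the largest change of width in each direction (peak of at least 1000 bp in either stage), the sorting markers and Prdm9. Spo11, Ankrd31, Gm960, Mybl1, Tjp1, Ctsl, Wt1, Nr5a1, Cnn1, Laptm5, Cdc20, Rnf17, Tdrd7, Tdrd3, Mael, the motif and the sites printed for it were chosen after their values were seen. Some items under these rules are not reported here. The alternatives were equal list sizes, the wider part of each list, other TSS windows and annotations, each library left out, and each experiment taken alone as a block.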

Additional observations from a re-analysis of the deposited data

How the results depend on the processing

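Of 120 alternative values for 13 results, 77 stayed within the limit set for their kind, 43 did not and 0 reversed. The limit was 1.5 times for a count and the binomial interval for a share of sites. Differences between stages had only to keep their sign and their side of 0.05 in the exact test. That test cannot pass 0.05 here, so those values could fail only by reversing. With the 4883 widest peaks of each list, 1600 sites were lost, 1569 gained and 1400 kept, and 13.7%, 97.5% and 99.4% of them were at a TSS. At genes, 196 were then lost, 1893 gained and 2021 kept. With the wider part of each list, cut at its median, 2348 sites were lost, 219 gained and 1469 kept, with 23.6%, 96.3% and 99.4% at a TSS, and 271 genes were gained and 2111 kept. With TSS windows of 1000 bp, 22.8% of lost sites were at a TSS. With protein-coding genes only, the shares were 16.9% (lost), 73.0% (gained) and 97.4% (kept).

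Leaving out 1 library at a time gave 4011 to 9662 lost sites, 191 to 450 gained and 4369 to 5563 kept. The shares at a TSS ran from 15.3% to 38.0% (lost), 79.1% to 89.4% (gained) and 98.2% to 98.6% (kept). Lost genes ran from 826 to 2302, gained genes from 165 to 409 and kept genes from 5737 to 7213. The share of peaks at a TSS, zygonema minus early pachynema, ran from -49.6 to -34.3 percentage points, and the log2 width at kept sites, early pachynema minus zygonema, from -0.79 to -0.26. The share of lost sites with a peak, leptonema minus later stages, ran from 20.2 to 42.5 points.

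With the replicate number as a block, experiment 1 alone gave 9712 lost and 645 gained sites, and experiment 2 alone gave 6884 and 437. A shared experiment number is all that pairs the samples, and the share of peaks at a TSS differed by -49.4 points within experiment 1 and -34.5 within experiment 2 (zygonema minus early pachynema), with p = 0.5 in the exact sign-flip test over 2 experiments. The share of lost sites outside TSSs with the motif was 16.0% with windows centred on the merged site, 16.1% with equal list sizes and 12.8% without the repeat GCTGCTGCT; these alternatives and the libraries of other stages left out were added after seeing the data. The cause of each move was not tested, and equal sizes change the smallest width as well as the length of a list. Depth is unknown, so the absence of a peak is not the absence of the mark.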
